A study of Mus musculus with 20 samples.

Results

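The genes described here encode factors that splice, trim, extend and chemically modify transfer RNA (tRNA) in the mouse. They were chosen by gene symbol, from the families Tsen, Trmt, Pus, Nsun, Elp, Rpp, Pop, Adat, Ctu, Tyw and Dus together with Clp1, Trmu, Trnt1 and Thg1l, and 62 of the 34937 genes in the count files matched. RNA was sequenced from single 8-cell (8C) embryos at E2.5 (embryonic day 2.5), each library being 1 embryo, from timed natural matings on a mixed background. In the 10 Ehmt2Mat embryos the mother carried a floxed and a null Ehmt2 allele (Ehmt2 F/-) with Zp3-Cre, and in the 9 Ehmt2Cntr embryos analysed the mother carried a floxed and a wild-type allele (Ehmt2 F/+) with the same Cre. Ehmt2 encodes G9a, the enzyme that dimethylates lysine 9 of histone H3. Zp3-Cre is active in the growing oocyte, so that both groups came from Cre-positive females and differed in the Ehmt2 product that the oocyte could leave to the embryo. The fathers were Ehmt2 +/-, and by zygotic genotype the controls were 6 +/+ and 3 +/-, while the Ehmt2Mat embryos were 5 +/- (Ehmt2M/+) and 5 -/- (Ehmt2M/Z). Control 4, labelled +/+, was not analysed here. The labels name neither mother nor litter, so the maternal genotype and the litter cannot be told apart. Embryos were chosen as viable by their morphology, which the paper could not tell apart between the groups. The paper also reports a mild developmental delay of Ehmt2Mat embryos at this stage, and its part in the values below was not tested.

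A tRNA is transcribed as a precursor. RNase P removes the leader at its 5′ end, a CCA end is added at its 3′ end, and in some tRNAs the TSEN endonuclease cuts out an intron. Methyltransferases, pseudouridine synthases, deaminases, the Elongator complex and other enzymes then modify bases, many of them in the anticodon loop, where they affect decoding, or in the body, where they affect folding and stability. RNA-seq of polyadenylated transcripts measures the mRNAs of these factors, not the tRNAs themselves.

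The comparison of Ehmt2Mat with Ehmt2Cntr is the one that the choice of these genes used, so its fold changes and calls are given as a description, no p-value is printed for it, and a call is not independent evidence. Levels are CPM, counts scaled to library size with TMM factors, and fold changes are log2 ratios from edgeR with their standard error (SE). A gene is called when its Benjamini-Hochberg adjusted p from edgeR's quasi-likelihood test over all tested genes was under 0.05.

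Total counts per embryo ranged from 8231646 to 30602434, and 3 counts corresponded to 0.0980 to 0.364 CPM. The 62 genes took 0.317 to 0.431% of the counts of an embryo, with a median of 0.366% in controls and 0.406% in Ehmt2Mat embryos. No pair of embryos had identical counts. The targeted gene, Ehmt2, was at 66.6, 133 and 253 CPM (lowest, median and highest) in controls and at 58.7, 94.9 and 159 CPM in Ehmt2Mat embryos. Its fold change was -0.47 (SE 0.24) on the log2 scale and it was not called. In Ehmt2M/Z embryos it was at 58.7 to 115 CPM, largely within the control range, so the reads over this gene do not separate the labelled genotypes. Of 5 cleavage embryo markers (Pou5f1, Tead4, Tfap2c, Zfp42 and Dppa3), all were detected, and their summed level was 1880 to 3145 CPM in controls and 3033 to 3877 CPM in Ehmt2Mat embryos. The sum of 5 oocyte markers was 32.1 to 264 CPM in controls and 101 to 355 CPM in Ehmt2Mat embryos, and that of 5 two-cell stage markers 2.55 to 13.1 and 3.69 to 20.9 CPM. Of 6 cumulus and granulosa cell genes, 4 (Foxl2, Amh, Ptx3 and Has2) were at 0 in every embryo, and Ehmt2Mat 3 stood apart with 315 counts (38.2 CPM) of Inha. The sum of 3 blood genes was at most 7.48 CPM. The cleavage embryo sum moved with the maternal genotype, and its part in the values below was not tested. Since each library is a whole embryo, fewer cells and less RNA per cell cannot be told apart.

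Of the 62 tRNA factors, 55 had at least 1 count in every embryo, and 60 passed the filter on low counts. Trmt9b, with at most 29 counts in an embryo, and Dus4l, with at most 97, did not pass. Between the maternal genotypes, 5 of the 60 were called, which is 8.33% beside 9.35% of the 11754 genes tested. Tsen15, Elp2 and Pop1 were called higher in Ehmt2Mat embryos, 5% of the tRNA factors beside 4.37% of all genes. Tsen34 and Trmt61a were called lower, 3.33% beside 4.98%. The share called was therefore near the background. The median fold change was 0.28 on the log2 scale, beside -0.04 over all tested genes. In 7 of the 60 all Ehmt2Mat embryos lay above the median CPM of the controls, and in 3 all lay below it. Among all tested genes these shares were 8.32% and 7.83%. The fold change was above 0 for 40 of the 60 (66.7%, beside 47.6% of all tested genes) and below 0 for 20. It was at least 1 in size for 5 factors (8.33%, beside 19.4% of all tested genes) and under 0.5 for 38 (63.3%, beside 51.5%). The median SE of their fold changes was 0.30 beside 0.42 over all tested genes. Their median level was also higher, 5.75 beside 4.36 in log2 CPM, and its part in these differences was not tested.

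**Figure D1:**
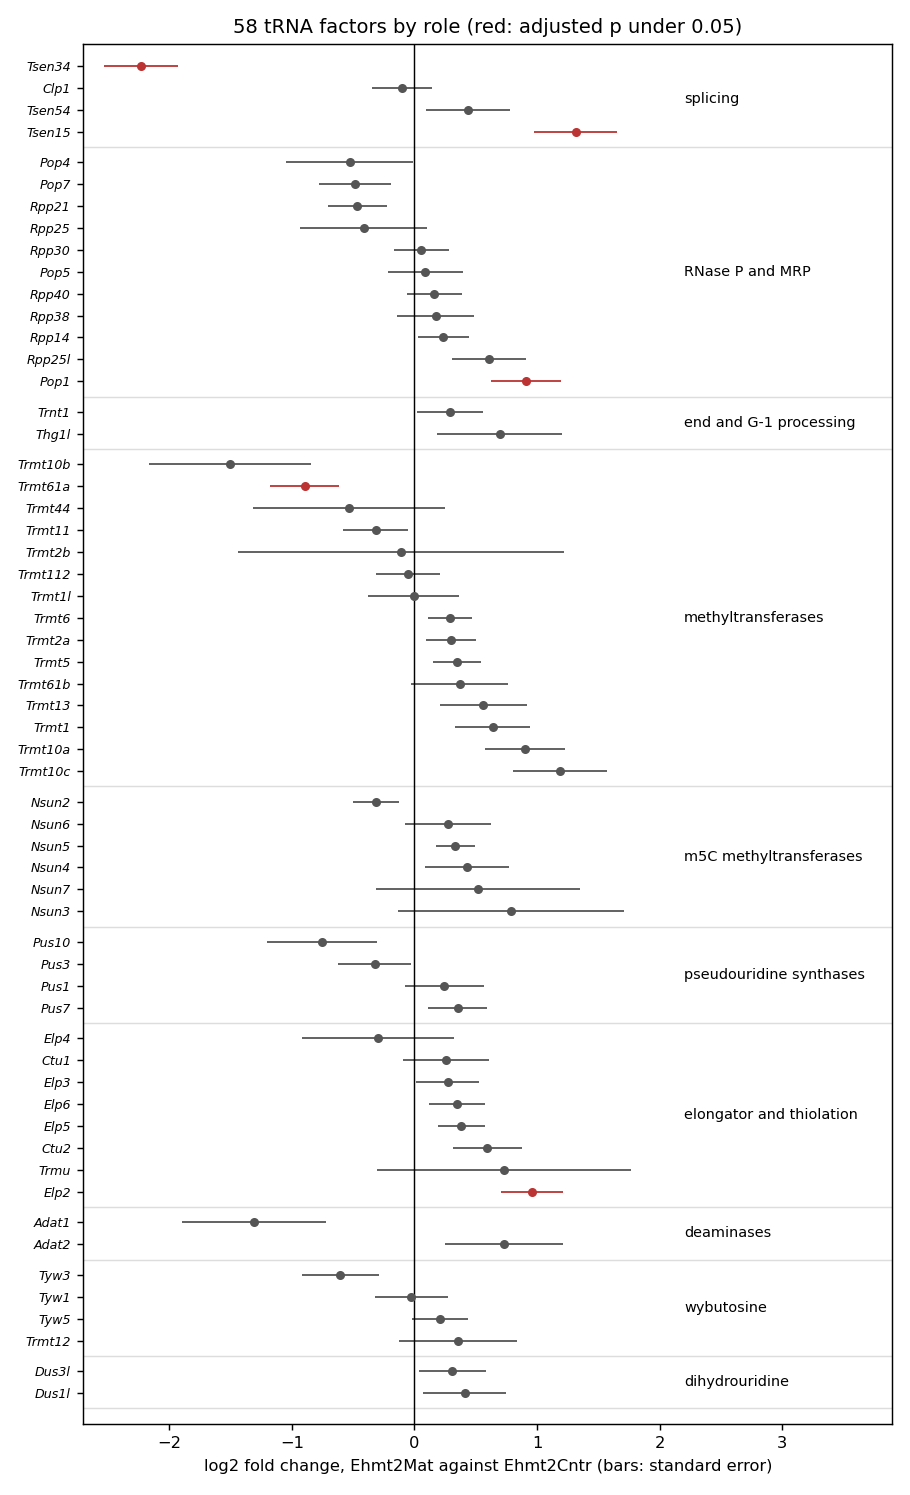
Log2 fold change between Ehmt2Mat (n = 10) and Ehmt2Cntr (n = 9) embryos for 58 of the 60 tested tRNA factors, grouped by role, with bars of 1 SE and the 5 called genes in red. Tsen34 lies at -2.23 and Tsen15, in the same complex, at 1.32, while most other genes lie within 0.5 of 0.

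The tRNA splicing group held a call in each direction. TSEN is an endonuclease, of which Tsen34 encodes a catalytic subunit and Tsen15 and Tsen54 encode structural subunits, and the RNA kinase Clp1 associates with it. Tsen34 was at 22.1, 54.1 and 74.5 CPM (lowest, median and highest) in controls and at 6.30, 8.01 and 20.4 CPM in Ehmt2Mat embryos. All 10 Ehmt2Mat embryos lay below all 9 controls, but the gap was narrow, between Ehmt2Mat 6 and control 10. The fold change was -2.23 (SE 0.30). Tsen34 was the only tRNA factor whose groups did not overlap, and among all tested genes 0.519% did not overlap (0.179% with Ehmt2Mat lower).

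Tsen15 went the other way. It was at 3.47, 11.4 and 19.9 CPM in controls and at 19.5, 26.9 and 35.8 CPM in Ehmt2Mat embryos. In 9 of 10 Ehmt2Mat embryos it was above the highest control, control 2, and Ehmt2Mat 3 lay just under it. The fold change was 1.32 (SE 0.34). Both genes were therefore called, in opposite directions, within 1 complex.

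Tsen54 and Clp1 differed less. Tsen54 had a fold change of 0.44 (SE 0.34) and Clp1 of -0.10 (SE 0.24), and neither was called. In both the groups overlapped widely, and control 7 was low for Tsen54 at 3.54 CPM.

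**Figure D2:**
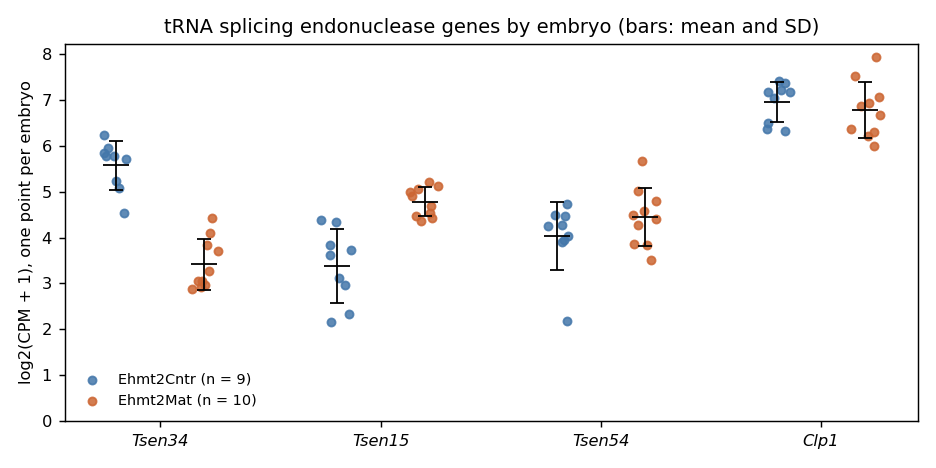
Level of Tsen34, Tsen15, Tsen54 and Clp1 on the log2(CPM + 1) scale, 1 point per embryo, with the mean and SD of 9 Ehmt2Cntr and 10 Ehmt2Mat embryos. The groups are apart in Tsen34 and nearly apart in Tsen15, and overlap in Tsen54 and Clp1.

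Within an embryo, the difference between the levels of Tsen15 and Tsen34 on the log2(CPM + 1) scale was -3.69, -1.99 and -1.24 (lowest, median and highest) in controls and 0.32, 1.58 and 2.15 in Ehmt2Mat embryos. It was above 0 in 0 of 9 controls and in 10 of 10 Ehmt2Mat embryos. This difference is made from the called genes and adds no separate evidence.

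**Figure D3:**
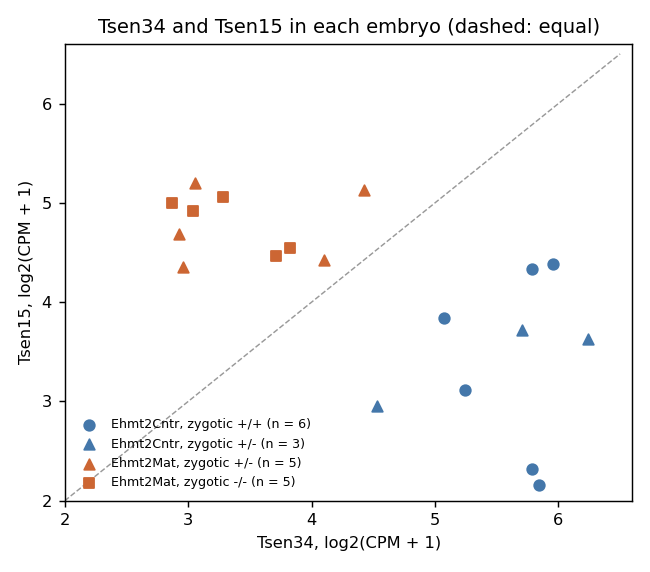
Tsen34 against Tsen15 in each of the 19 embryos, both on the log2(CPM + 1) scale, with colour for the maternal and marker shape for the zygotic genotype. The 10 Ehmt2Mat embryos lie above the dashed line of equal level and the 9 controls below it, and within each colour the zygotic genotypes are intermixed.

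Scaled for depth and exon length (RPKM), the genes can be ranked against each other, although the amplification favoured 3′ ends and makes this approximate. The highest control medians were those of Nsun2, a cytosine methyltransferase (91.1 RPKM), of the RNase P subunits Rpp30 (75.6), Pop7 (70.9) and Pop4 (67.5) and of Clp1 (53.5). In controls the median of Tsen34 was 22.4 RPKM, above that of Tsen54 with 7.33 and Tsen15 with 2.71. The ranges of neighbours in this order overlapped between embryos, but within each control Tsen34 was above Tsen54 and Tsen54 above Tsen15. In Ehmt2Mat embryos the medians were 8.50 RPKM for Tsen54, 6.42 for Tsen15 and 3.31 for Tsen34, again with overlapping neighbours. There the order of the 3 genes differed between embryos. Tsen34 went from rank 19 to rank 51 among the tRNA factors, and Tsen15 from rank 53 to rank 41.

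Reads were counted without regard to strand, and a read over several genes was given to each of them. Tsen34 shared 149 exon bases, 6.17% of its exon length, with Mboat7 on the opposite strand. Mboat7 was at 24.2, 38.7 and 77.2 CPM in controls and at 17.7, 27.0 and 45.1 CPM in Ehmt2Mat embryos, a fold change of -0.52 (SE 0.26), and was not called. Of the 62 tRNA factors, 18 shared an exon base with another gene and 11 shared more than 10% of their length. The share was 88.1% for Pus3 (with Hyls1), 47.3% for Ctu2 (with Piezo1) and 39.1% for Trmt112, so the values of these 3 genes are uncertain. Tsen15, at chr1:152370735-152386688 (GRCm38, minus strand), shared none.

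RefSeq promoter windows (GRCm38.p6) of 250 bases upstream of a transcript start were found for 49 of the 62 tRNA factors, and among the called genes for Tsen34, Tsen15 and Trmt61a. Counted on both strands, with hits of different motifs allowed to overlap, the GC box GGGCGG was in the windows of 28 of the 49 (57.1%, beside 35.4% of 27025 genes). The ETS motif CCGGAAG was in 20.4% beside 7.83%, the E-box CACGTG in 8.16% beside 6.86% and the CCAAT box CCAAT in 32.7% beside 37.5%. The TATA box TATAAA was in 6.12% beside 14.3%, and the NRF1 motif in 0% beside 0.877%. The 27025 genes are all those with a window, whether or not they were expressed in these embryos. The part of expression level in these differences was not tested. These are matches of letters, and no binding was measured. The windows of Tsen15 (chr1:152386683-152386932, minus strand) and Trmt61a (chr12:111677855-111678104, plus strand) are shown because these genes were called in opposite directions, and capitals mark the GC box, of which Tsen15 holds 1 and Trmt61a 0.
Tsen15: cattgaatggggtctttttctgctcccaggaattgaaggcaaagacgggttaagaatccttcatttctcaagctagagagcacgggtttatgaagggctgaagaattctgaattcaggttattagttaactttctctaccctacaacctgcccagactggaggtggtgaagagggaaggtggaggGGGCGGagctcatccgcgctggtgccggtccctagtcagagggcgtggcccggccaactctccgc
Trmt61a: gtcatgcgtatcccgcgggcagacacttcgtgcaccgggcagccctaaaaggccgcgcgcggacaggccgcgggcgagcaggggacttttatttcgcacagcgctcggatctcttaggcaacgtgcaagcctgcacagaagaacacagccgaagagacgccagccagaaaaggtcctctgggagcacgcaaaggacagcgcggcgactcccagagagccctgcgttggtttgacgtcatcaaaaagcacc
The windows at the 2 starts listed for Tsen34 hold 2 and 3 GC boxes, so the motif was found in the window of a gene called lower and of a gene called higher. These Tsen34 windows (chr7:3693360-3693609 and chr7:3694258-3694507) lie mostly or wholly within the gene as annotated for counting (chr7:3693375-3701023, plus strand). They are therefore not simply sequence upstream of the gene.

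RNase P and the related RNase MRP, which cuts precursors of ribosomal RNA, share most of their protein subunits. Of their 11 subunit genes, 1 was called, beside 9.35% of all tested genes. Their median fold change was 0.09, beside -0.04 over all tested genes. Pop1, a subunit common to both enzymes, was at 16.1, 42.7 and 80.6 CPM in controls and at 46.5, 98.1 and 114 CPM in Ehmt2Mat embryos. The groups overlapped, with 7 of 10 Ehmt2Mat embryos above the highest control and 10 of 10 above the control median, and the fold change was 0.91 (SE 0.28). Rpp14, named for the highest mean CPM in this group, had a fold change of 0.24 (SE 0.21) and was not called. The call of Pop1 was kept in 7 of 19 fits that left out 1 embryo each, with fold changes of 0.79 to 1.04. It was lost without control 1, 2, 3, 7, 8 or 9 and without Ehmt2Mat 1, 2, 4, 5, 7 or 9.

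At the ends of the tRNA, Trnt1 adds the CCA end and Thg1l adds a guanosine to the 5′ end of histidine tRNA. Their fold changes were 0.29 (SE 0.27) and 0.69 (SE 0.51), and neither was called. Trnt1 was at 59.4 to 264 CPM in controls and 95.4 to 261 CPM in Ehmt2Mat embryos, with overlapping groups.

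Elongator and the thiolation enzymes modify the wobble uridine of the anticodon. Of 9 genes, 1 was called higher and 0 lower, beside 9.35% of all tested genes called. The median fold change was 0.38, beside -0.04 over all tested genes. Elp2, a scaffold subunit of Elongator with WD40 repeats, was at 23.4, 38.3 and 94.2 CPM in controls and at 49.1, 86.8 and 113 CPM in Ehmt2Mat embryos. All 10 Ehmt2Mat embryos were above the control median, and 3 were above the highest control, control 2. The fold change was 0.96 (SE 0.25), the call being kept in 19 of 19 fits without 1 embryo. The catalytic subunit Elp3 had a fold change of 0.27 (SE 0.26). Elp5, named for the highest mean CPM in this group, had 0.38 (SE 0.19). Neither was called.

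Among the 15 tested genes of the Trmt family in the methyltransferase group, 1 was called, beside 9.35% of all tested genes. Trmt61a, the catalytic partner of Trmt6 in the enzyme that methylates an adenosine of the T loop, was at 38.9, 69.5 and 211 CPM in controls and at 36.2, 47.1 and 89.5 CPM in Ehmt2Mat embryos. The groups overlapped. The 3 controls with zygotic genotype +/- held both the lowest and the highest control values, at 38.9, 170 and 211 CPM. The fold change was -0.90 (SE 0.28), and the call was kept in 8 of 19 fits without 1 embryo, with fold changes of -1.01 to -0.69. It was lost without control 1, 3, 5 or 7 and without Ehmt2Mat 1, 2, 3, 7, 8, 9 or 10. Trmt6, the other subunit of the enzyme, had a fold change of 0.29 (SE 0.18) and was not called.

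The 3 Trmt10 genes, which encode methyltransferases that act on guanosine or adenosine next to the acceptor stem, had large fold changes without being called. Trmt10a and Trmt10c are described here because their values were seen, and Trmt10b as the methyltransferase with the largest fold change. Trmt10c, which also belongs to mitochondrial RNase P, was at 8.98, 29.8 and 103 CPM in controls and at 50.5, 101 and 146 CPM in Ehmt2Mat embryos. All 10 Ehmt2Mat embryos were above the control median, as in 8.32% of all tested genes, and 5 were above the highest control. Its fold change of 1.19 (SE 0.38) lay just outside the threshold for a call. It was called without control 8, 9 or 10 or without Ehmt2Mat 8, with fold changes of 1.26 to 1.46. Trmt10a had a fold change of 0.91 (SE 0.33). Trmt10b was at 0.120, 19.4 and 32.4 CPM in controls and at 0.363, 7.00 and 14.1 CPM in Ehmt2Mat embryos, where 10 of 10 were below the control median. Its fold change was -1.50 (SE 0.66), with control 3 at the bottom of the control range.

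**Figure D4:**
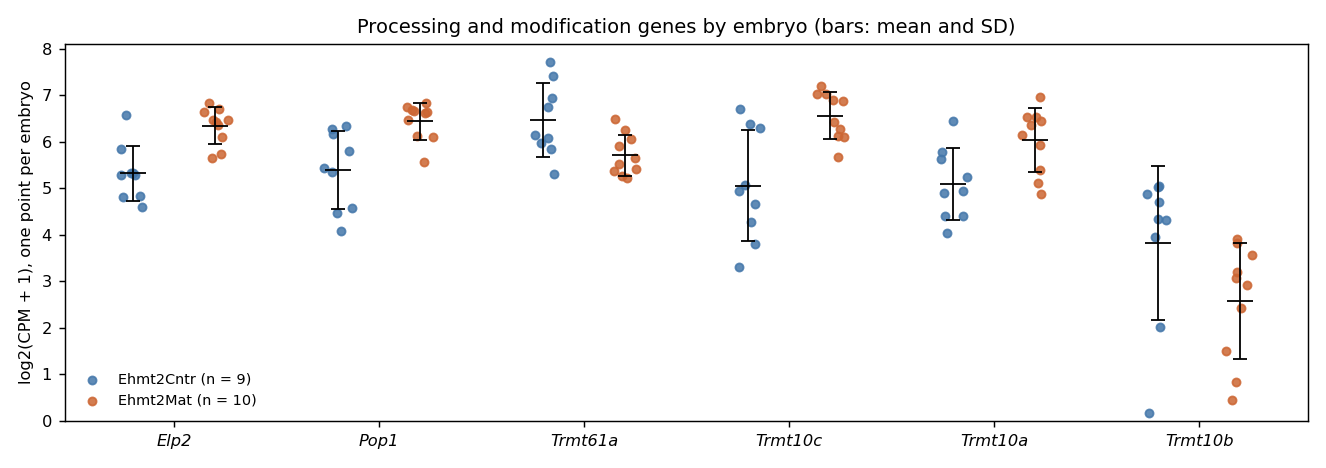
Level of Elp2, Pop1, Trmt61a and the 3 Trmt10 genes on the log2(CPM + 1) scale, 1 point per embryo, with the mean and SD of 9 Ehmt2Cntr and 10 Ehmt2Mat embryos. The groups overlap in every gene shown, and the controls of Trmt10c range from 8.98 to 103 CPM.

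The remaining enzymes gave no call. Of the 6 Nsun genes, which encode cytosine methyltransferases for tRNA and, in some members, ribosomal RNA, Nsun2 was at 427 to 698 CPM in controls and 243 to 636 CPM in Ehmt2Mat embryos, with a fold change of -0.31 (SE 0.19). Nsun3, a mitochondrial enzyme, had the largest fold change of this family, 0.79 (SE 0.92), with medians of 1.07 and 4.07 CPM, and its value without control 7 was 1.504. Of the 4 pseudouridine synthases, Pus10 had a fold change of -0.76 (SE 0.45) and Pus1 of 0.24 (SE 0.32). Adat1, which deaminates adenosine in alanine tRNA, had -1.31 (SE 0.59), and Adat2, a subunit of the wobble adenosine deaminase, 0.73 (SE 0.48). Their control medians were 10.8 and 5.50 CPM, and the groups overlapped in both. In wybutosine synthesis, which builds a bulky base next to the anticodon of phenylalanine tRNA, Tyw3 had -0.60 (SE 0.32) and Tyw5 0.21 (SE 0.23). The dihydrouridine synthases Dus3l and Dus1l had 0.31 (SE 0.27) and 0.41 (SE 0.34).

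Of the tRNA factors, 6 were listed by hand as mitochondrial, and the list may not be complete. These 6, Trmt2b, Trmt61b, Nsun4, Trmu, Nsun3 and Trmt10c, had fold changes of -0.11 to 1.19. In the main fit 0 of 6 were called, beside 9.35% of all tested genes. The call of Trmt10c, at 1.19, depended on the setting.

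Of 52 other tRNA pathway genes that the symbol rule does not take, all 52 were tested and 3 were called (5.77%, beside 9.35% of all genes), with a median fold change of 0.23. One was called higher and 2 lower, and the one called higher acts on ribosomal RNA. This gene, Nop2, an Nsun-like cytosine methyltransferase, was at 102, 137 and 247 CPM in controls and at 224, 433 and 824 CPM in Ehmt2Mat embryos, a fold change of 1.67 (SE 0.23). Urm1, the sulfur carrier that serves Ctu1 and Ctu2 in wobble uridine thiolation, was at 44.5, 109 and 193 CPM in controls and at 25.2, 44.8 and 79.1 CPM in Ehmt2Mat embryos, a fold change of -1.16 (SE 0.28). In both genes the groups overlapped. Trp53rkb, a kinase of the KEOPS complex, had a fold change of -1.75 (SE 0.50), but its near-identical copy Trp53rka had 0.35 (SE 0.66) and was not called, so that reads may be split between them and both values are uncertain. Ctu1 and Ctu2 themselves had fold changes of 0.26 (SE 0.35) and 0.60 (SE 0.28) and were not called.

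The zygotic genotypes give comparisons that the choice of genes did not use. Between Ehmt2M/Z and Ehmt2M/+ embryos, edgeR called 0 of the 60 tRNA factors and 0% of 12195 genes. At an unadjusted p under 0.05 there were 4 tRNA factors (6.67%) and 270 genes (2.21%), and DESeq2 called 15 genes and 0 tRNA factors. Tsen34 had a fold change of -0.27 (SE 0.53), with medians of 8.70 CPM in Ehmt2M/Z and 7.31 CPM in Ehmt2M/+ embryos. That of Tsen15 was 0.01 (SE 0.33), with medians of 29.1 and 24.8 CPM. Elp2 and Pop1 had fold changes of 0.32 (SE 0.27 for both) and Trmt61a of 0.42 (SE 0.31). The adjusted p from edgeR was 0.9997 for each of these 5 genes. In both zygotic genotypes the median of Tsen34 was below all controls and that of Tsen15 above all controls. This restates the maternal comparison, which the choice of genes used, and adds no separate evidence. A difference between the zygotic genotypes was not detectable. The smallest p was that of Trmt2b, a mitochondrial uridine methyltransferase, with a fold change of 4.78 (SE 1.63) and an adjusted p of 0.9997 from edgeR. Trmt2b was at 0 in some embryos of both maternal groups and reached 28.5 CPM.

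Between the 3 +/- and the 6 +/+ controls, edgeR called 0 of the 60 tRNA factors and 0% of 12646 genes. With so few embryos, the lack of a call does not show that these genotypes were alike. At an unadjusted p under 0.05 there were 2 tRNA factors (3.33%) and 572 genes (4.52%), and DESeq2 called 103 genes and 0 tRNA factors. The smallest p was that of Adat1, with a fold change of -1.77 (SE 0.77) and an adjusted p of 0.99976 from edgeR. Tsen34 had a fold change of 0.01 (SE 0.42), Tsen15 of -0.15 (SE 0.78) and Trmt61a of 0.81 (SE 0.44), none of them called. The median over the tRNA factors was 0.03 within Ehmt2Mat and -0.07 within controls. Within the +/- embryos alone, 5 Ehmt2Mat against 3 controls, Tsen34 had a fold change of -2.11 and Tsen15 of 1.40, but edgeR called 1 of 13401 genes and 0 tRNA factors in that fit.

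**Figure D5:**
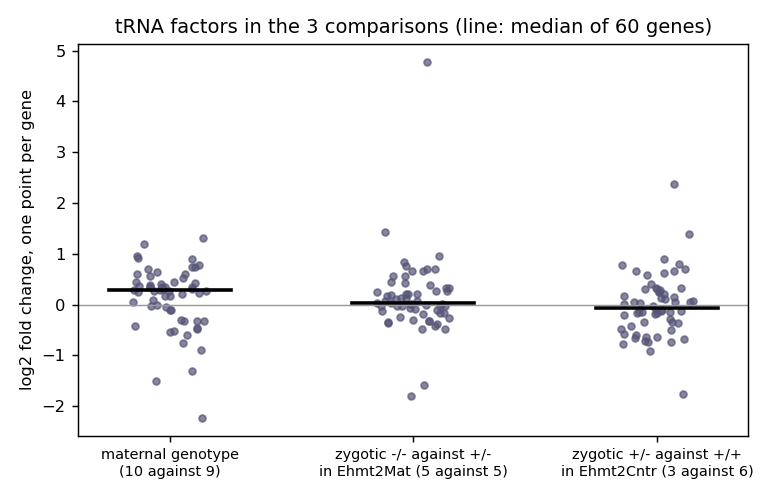
Log2 fold changes of the 60 tested tRNA factors for the maternal genotype and for each of the 2 zygotic comparisons, 1 point per gene, with a line at the median. The medians are 0.28, 0.03 and -0.07, and the highest point, at 4.78, is Trmt2b in the comparison of Ehmt2M/Z with Ehmt2M/+ embryos.

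Across the 19 embryos, after the mean of each maternal group was removed, correlations between tRNA factors went in both directions. The median correlation over 1770 pairs of tRNA factors was 0.0153, beside 0.0029 over all pairs of tested genes. It was 0.114 among the RNase P and MRP subunits, 0.114 among the pseudouridine synthases, 0.0632 in wybutosine synthesis and 0.0129 within the splicing group. The Elongator and thiolation group had 0.0283, the 6 Elongator subunits taken alone 0.106, the methyltransferases 0.0248 and the Nsun genes -0.0623. The highest value was 0.770, between Trnt1 and Trmt10c, and the lowest -0.796, between Rpp25 and Trmt13. The points of each correlation share their library and its depth, and no test was made. The median coefficient of variation between embryos was 50.6% in controls and 38.8% in Ehmt2Mat embryos for the tRNA factors, beside 58.6% and 50.9% over all tested genes. The part of the higher level of the tRNA factors in this was not tested.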

How the data were processed

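Single-embryo cDNA was amplified with a 3′ bias and sequenced as single-end 50 bp reads. The authors deposited raw counts per gene, which the file headers ascribe to featureCounts 1.5.0 on exons of Ensembl release 82 (GRCm38), with a minimum overlap of 10 bases, options that count all overlapping genes and multi-mapping reads, and no strand option. The headers do not give the aligner. The authors' methods name TopHat2 and SeqMonk for genes, and bowtie with uniquely mapping reads followed by featureCounts for transposable elements. Which alignment was counted, and whether it held multi-mapping reads, is therefore not known, which bears on near-identical genes. Of 34937 gene IDs, 34599 had a symbol. edgeR 4.0.16 (R 4.3.3) was run with its filter on low counts, TMM scaling, the quasi-likelihood test and Benjamini-Hochberg adjustment. DESeq2 1.42.0 was an alternative. RPKM used the exon length in the files. Library depth was 8231646 to 30602434 counts, and intervals of counting error were not used since amplified reads are not independent molecules. Replicates are embryos whose mothers and litters are not labelled, so p-values measure the spread between these embryos. The fits were tested on simulated data.

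The tRNA factors and gene lists were chosen with earlier results of these data known. Named genes are all called tRNA factors, the one with the highest mean CPM and the one with the largest fold change in each role, splicing genes, the tRNA factor with the smallest p in each zygotic comparison, the called pathway genes and genes sharing exon bases. Trmt10a and Trmt10c are marked as chosen after their values were seen. Others outside this rule, among them Elp3, Adat2, Ctu1 and Ctu2, are named beside related genes without such a mark. Alternatives were the scaling, the filter, DESeq2, a replicate block, +/- embryos alone, mitochondrial genome genes left out, and each embryo left out. Control 4 was not analysed here. A few tRNA factors count in the totals but are not reported here by name.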

Additional observations from a re-analysis of the deposited data

Results flagged for a closer look

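The 23 tRNA factors named by rule and Ehmt2 were examined in both maternal groups, 48 groups of values in all. In 3 of the 48, 1 embryo lay apart from the rest by Dixon's criterion on log2(CPM + 1), and chance marks about 1 group in 20. Tyw5 was at 28.7 CPM in control 1, while the next control was at 42.0 CPM and the highest at 60.6 CPM. Pus10 was at 0.727 CPM in Ehmt2Mat 3, while the next embryo was at 16.8 CPM and the highest at 61.6 CPM. Tsen54 was at 3.54 CPM in control 7, while the next control was at 14.03 CPM and the highest at 25.5 CPM. None of these 3 genes was called between the maternal genotypes. Ehmt2Mat 3 is also the embryo with 38.2 CPM of Inha, and the part of this in the value of Pus10 was not tested.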

How the results depend on the processing

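The median fold change of the tRNA factors stayed between 0.24 and 0.32 under all alternatives, but the median over all tested genes moved. The latter was -0.04 in the main fit and -0.05 to -0.01 in the fits without 1 embryo. It was 0.13 without a filter on low counts, 0.07 with the replicate block and 0.03 with +/- embryos alone. Tsen34, Tsen15 and Elp2 were called in 19 of 19 fits without 1 embryo and in 6 of 7 other alternatives. Leaving out 1 embryo gave 3 to 6 called tRNA factors (2 to 4 higher, 1 to 2 lower), beside 7.5 to 10.8% of all tested genes. DESeq2, run without edgeR's filter, called 7 of 62 tRNA factors (5 higher, adding Trmt10a and Trmt10c) and 8 of 52 other pathway genes, beside 9.76% of 21185 genes, and its median over all genes was 0.14. A minimum of 10 counts in every embryo gave 6 of 50 tRNA factors, adding Trmt10c, and 5 of 44 other pathway genes, beside 19.2% of 7154 genes. Without a filter on low counts, 4 of 62 tRNA factors were called, beside 5.67% of 21185 genes. Of these, 3 were higher and 1 lower, Trmt61a having lost its call. Counting only the 44 of 62 tRNA factors with no shared exon base also left 4 calls, 3 higher and 1 lower. The main fit, from which this count was taken, called 9.35% of all tested genes. Tsen34, which shares bases with Mboat7, is left out of that count. With +/- embryos alone, which leaves 8 embryos, 0 tRNA factors were called, 0 higher and 0 lower, with 0 pathway genes, and Rpp14 (-0.16), Pus1 (-0.36) and Adat1 (0.051) changed direction. With the replicate number as a block, 5 were called (4 higher with Trmt10c, 1 lower, without Trmt61a), 4 of them shared. Of all tested genes, 709 (6.03%) were called in that fit, beside 1099 (9.35%) in the main fit. Embryos with the same number did not vary together (9 pairs, correlations of -0.16 to 0.086, 0 of 9 controls closest to their own number), so the numbers do not pair them. No paired analysis was possible for the zygotic comparisons because their embryos share no numbers. The zygotic comparisons called 0 tRNA factors under every alternative run. The cause of these changes was not tested.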
